A study of Mus musculus with 8 samples.

Results

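The genes described here are 31 enzymes and regulators of sterol and fatty acid synthesis, measured as RNA in cultured mouse bone marrow cells with and without Alkbh5. They were taken by symbol from the gene column of all 8 count files, and all 31 were found among the 27710 genes listed. They comprise 18 enzymes of cholesterol synthesis, 5 genes of sterol sensing and the SREBP transcription factors, the sterol carrier gene Stard4, 3 enzymes of fatty acid synthesis and elongation, and 4 fatty acid desaturases. All 31 passed the low-count filter in every comparison.

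The cells were lineage-depleted bone marrow, the stem and progenitor cells that remain once mature blood cells are removed, kept in serum-containing medium with stem cell factor, thrombopoietin, Flt3 ligand and interleukin 3. The Alkbh5-deficient cells carried the genotype Vav-iCre+; Alkbh5fl/fl, in which the Vav promoter drives Cre recombinase in blood cells and Cre deletes floxed Alkbh5, the gene of an RNA demethylase that removes N6-methyladenosine. The WT cells are labelled WT with no further allele, and the sources used here give neither their Cre and floxed alleles nor any animal's age. Per genotype, 3 libraries came from cells fed 4-thiouridine (s4U), a uridine analogue taken up into new RNA, at 100 µM for 2 h, and 1 came from cells labelled as having had no agent. RNA of all 4 groups went through TimeLapse chemistry, which recodes s4U in RNA so that it is read as cytosine. The series title names the stability of metabolic transcripts as its subject, and the counts give RNA levels, not stability.

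Cholesterol is built from acetyl-CoA through mevalonate, isoprenoid diphosphates, squalene and lanosterol, and fatty acids from acetyl-CoA through malonyl-CoA. When membrane sterol is low, SCAP carries SREBP proteins from the endoplasmic reticulum to the Golgi, where proteases release their transcription factor part. INSIG proteins hold SCAP back when sterol is plentiful. SREBP2, with the cofactors NF-Y and Sp1, switches on most genes of cholesterol synthesis, and SREBP1 those of fatty acid synthesis, so these genes are known for moving together in many tissues.

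Members were picked by symbol and not by promoter sequence, yet many are known targets of the factors above. The shares below are therefore a description, not an independent check. A promoter from 250 bases before to 50 after the RefSeq start was given for 24 of the 31 genes (RefSeq, GRCm38.p6), and 4 letter patterns were searched on both strands. The NF-Y box CCAAT was found in 19 of 24 member promoters (79.2%), against 43.1% of 9960 tested genes and 41.1% of 27025 genes in all. The Sp1 box GGGCGG was found in 20 of 24 (83.3%), against 67.6% of tested genes and 38.2% of all. The SREBP element TCACNCCA was found in 3 of 24 (12.5%), namely Hmgcs1, Msmo1 and Srebf2, against 4.48% of tested genes. Its longer form TCACNCCAC was found in Hmgcs1 alone (4.17%, against 1.33% of tested genes). A match shows that these letters occur, not that a factor binds there.

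Of these, 4 promoters are printed as examples, chosen after the values were seen. Hmgcs1, Msmo1, Cyp51 and Nsdhl are among 9 members that share a pattern across the fed libraries described further on. Hmgcs1 and Msmo1 show the SREBP element, and Cyp51 and Nsdhl stand for the others, since Hsd17b7, Ebp, Sc5d and Insig1 have NF-Y and Sp1 boxes but no match to the element either. Each line gives the 250 bases before the start, 5′ to 3′ on the gene's strand, with matches to any of the 4 patterns on either strand in capitals. GENCODE M21 places the first base of Msmo1 and of Cyp51 inside the printed run, upstream of the RefSeq start. The positions in GRCm38.p6 are chr13:119690101-119690350 (plus strand) for Hmgcs1, chr8:64733579-64733828 (minus strand) for Msmo1, chr5:4104698-4104947 (minus strand) for Cyp51 and chrX:72918271-72918520 (plus strand) for Nsdhl.
Hmgcs1: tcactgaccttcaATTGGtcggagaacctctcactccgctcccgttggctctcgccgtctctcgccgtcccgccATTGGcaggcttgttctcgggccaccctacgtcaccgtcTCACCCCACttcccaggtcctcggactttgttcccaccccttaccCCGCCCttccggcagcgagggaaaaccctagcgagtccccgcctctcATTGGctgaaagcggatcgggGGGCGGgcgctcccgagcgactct
Msmo1: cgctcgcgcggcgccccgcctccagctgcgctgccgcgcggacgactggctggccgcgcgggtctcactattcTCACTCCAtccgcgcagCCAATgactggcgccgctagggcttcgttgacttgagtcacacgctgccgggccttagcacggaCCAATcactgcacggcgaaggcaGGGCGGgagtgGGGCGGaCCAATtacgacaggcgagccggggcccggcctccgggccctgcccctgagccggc
Cyp51: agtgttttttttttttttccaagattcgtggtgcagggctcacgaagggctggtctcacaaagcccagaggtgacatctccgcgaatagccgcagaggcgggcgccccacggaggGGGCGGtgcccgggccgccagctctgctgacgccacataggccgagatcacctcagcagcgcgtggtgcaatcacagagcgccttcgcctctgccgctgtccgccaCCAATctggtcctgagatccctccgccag
Nsdhl: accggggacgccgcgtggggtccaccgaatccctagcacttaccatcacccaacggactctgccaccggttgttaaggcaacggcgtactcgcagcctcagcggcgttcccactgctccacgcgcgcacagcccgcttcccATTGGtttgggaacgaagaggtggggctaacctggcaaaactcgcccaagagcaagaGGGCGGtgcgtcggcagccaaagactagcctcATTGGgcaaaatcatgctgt
In the Hmgcs1 run the 9-letter SREBP element lies between NF-Y boxes, of which 3 precede the start. The Msmo1 run holds 3 NF-Y boxes, 2 Sp1 boxes and the 8-letter element. The Cyp51 run holds 1 NF-Y and 1 Sp1 box, and the Nsdhl run 2 NF-Y boxes and 1 Sp1 box.

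Reads assigned to genes totalled between 5723245 and 8615997 per library, of which the 31 genes held between 6668 and 11081. Alkbh5 had 0, 1 and 1 counts in Alkbh5-deficient fed libraries, against 1166, 1479 and 1061 in WT fed libraries, and 1 count against 1263 in the unlabelled pair, so the genotype labels fit the RNA. WT fed replicate 3 stood apart, with 14.2% of its gene counts on the single gene Gm26917, against 6.33% to 8.34% in the other 7 libraries. Markers of stem and progenitor cells summed to between 290 and 312 CPM (gene counts scaled to a common library total) in Alkbh5-deficient fed libraries and between 255 and 386 CPM in WT fed libraries. Neutrophil markers, a list that runs from Mpo and Elane to Ltf and Camp, summed to 7657 to 11942 CPM in Alkbh5-deficient and 6805 to 13102 CPM in WT fed libraries. Replicate 2 of both fed groups held Xist RNA and 0 counts of Y-linked Ddx3y, the other fed libraries at most 2 counts of Xist, and both unlabelled libraries held both RNAs. By these RNAs, fed replicate 2 of either genotype came from other animals than replicates 1 and 3. The labels do not tie a replicate to an animal or culture, so replicates 1 and 3 may still be technical repeats. The p-values therefore measure the spread between libraries, which includes a difference of sex.

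Per length, Srebf2, Fasn, Scd2 and Srebf1 were the most abundant of the 31 genes, and Lss, Hsd17b7 and Tm7sf2 the least. Levels here are CPM, scaled by TMM over 8 libraries, per kilobase of merged exons, as mean ± SD of 8 libraries. Srebf2 (chromosome 15, 82147181 to 82205379, plus strand), for SREBP2, stood first at 30.1 ± 4.27 CPM per kb, above 89.1% of tested genes. Fasn (chromosome 11, 120805846 to 120824547, minus strand), for fatty acid synthase, followed at 21.3 ± 3.24, and Scd2, for a stearoyl-CoA desaturase, at 19.2 ± 3.07 CPM per kb. The ranges of Fasn and Scd2 overlapped, 17.6 to 28.3 and 14.8 to 24.0 CPM per kb, so their order was within the spread, and that of Srebf2, 26.3 to 36.9, overlapped with Fasn too.

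Srebf1 (16.1 ± 2.28 CPM per kb) and Pmvk, for phosphomevalonate kinase (11.8 ± 2.06), came next. Fads2, Ebp, Insig1 and Cyp51 lay close together, between 9.99 and 11.0 CPM per kb, with overlapping ranges. At the low end stood Lss, for lanosterol synthase, at 1.12 ± 0.34, Hsd17b7, for a sterol keto-reductase, at 1.00 ± 0.27, and Tm7sf2, for a sterol reductase of the endoplasmic reticulum, at 0.82 ± 0.22 CPM per kb. Merged exons include those of rare transcripts (10.8 kb for Lss), which lowers a level per length, so neighbouring genes in the order cannot be ranked. Scd2 exceeded Scd1 per length in every library, with 14.8 to 24.0 CPM per kb for Scd2 and 1.47 to 4.50 for Scd1.

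**Figure D1:**
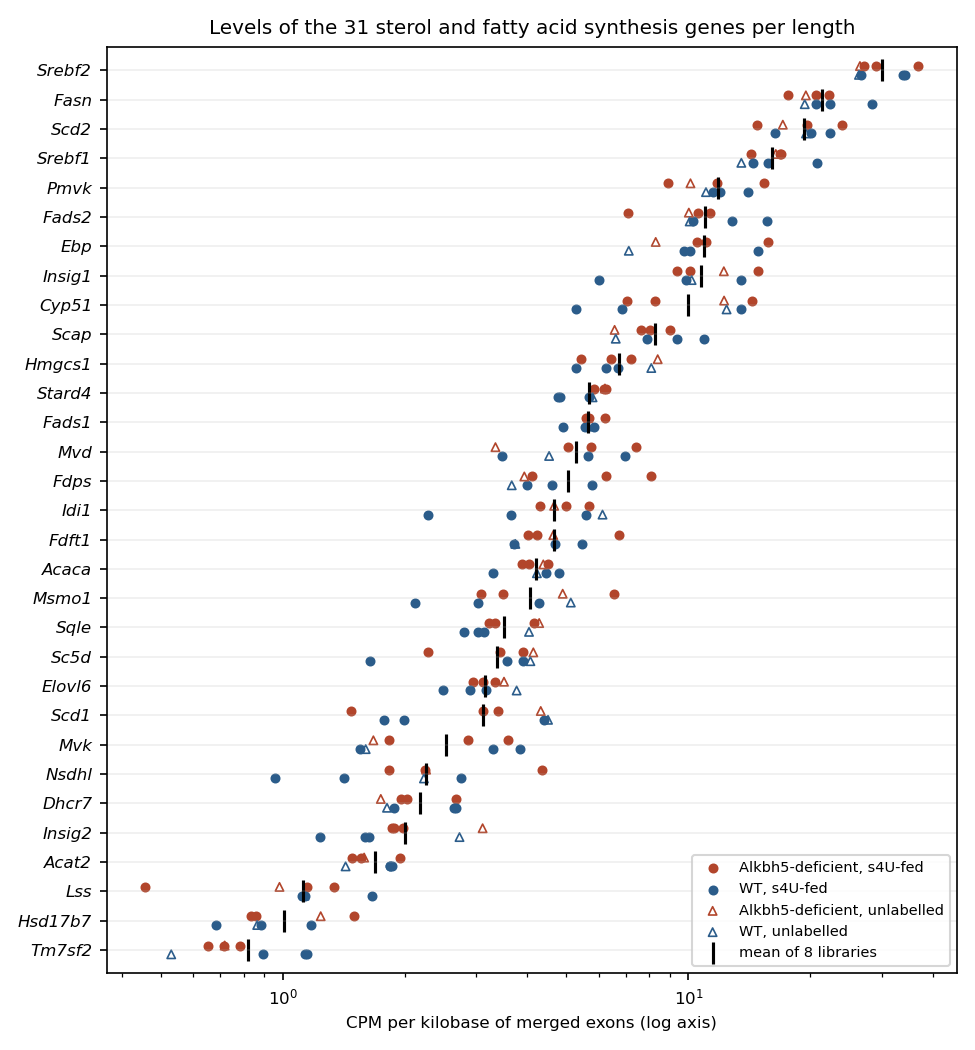
Level of each of the 31 genes in each library, as CPM per kilobase of merged exons on a log axis, with a black bar for the mean of 8 libraries; Alkbh5-deficient libraries are red, WT libraries blue, fed libraries filled and unlabelled libraries open. Srebf2 averaged 30.1 and Tm7sf2 0.82 CPM per kb, and Scd2 lies above Scd1 in every library.

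Between genotypes, 0 of the 31 genes passed the threshold in the fed libraries, and 1 of 13342 tested genes did (0.0075%), Alkbh5 itself (edgeR quasi-likelihood test, Benjamini-Hochberg adjusted p under 0.05). At an unadjusted p under 0.05, edgeR gave 0 members and 151 genes (1.13%). DESeq2 called 0 members and 2 genes (0.015%) at an adjusted p under 0.05, and gave 0 members and 130 genes at an unadjusted p under 0.05. The log2 fold change of Alkbh5-deficient over WT was above 0 for 17 of 31 members (54.8%), against 50.2% of all tested genes, with a median of 0.06 against 0.00. Single members ranged from -0.56 to 0.70, and the 95% interval of each of the 31 held 0. The median interval reached 0.60 to either side on the log2 scale, or 1.51-fold, so smaller differences could not be told from none with 3 libraries a group. In bulk libraries, fewer cells of a type and less RNA per cell cannot be told apart. The member interval reached least far for Stard4 (0.38) and farthest for Nsdhl (1.09).

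In the mevalonate arm, 4 of 7 genes were above 0, with a median log2 fold change of 0.06. Hmgcs1 (chromosome 13, 119690379 to 119708260, plus strand), whose product condenses acetoacetyl-CoA and acetyl-CoA to HMG-CoA, had 33.1, 24.9 and 29.7 CPM in Alkbh5-deficient fed replicates 1 to 3, against 30.8, 28.8 and 24.3 CPM in WT fed replicates 1 to 3. The groups overlapped, at 0.06 ± 0.19 (log2, SE), with a 95% interval from -0.38 to 0.49. Idi1, for isopentenyl diphosphate isomerase, had 19.9, 15.1 and 17.5 CPM in Alkbh5-deficient fed libraries, against 12.8, 19.6 and 7.97 CPM in WT fed libraries. WT replicate 3 was the lowest, and the difference was 0.35 ± 0.32 (log2, SE; edgeR adjusted p = 1.00). Fdps, for farnesyl diphosphate synthase, had 34.0, 26.4 and 17.3 CPM in Alkbh5-deficient fed libraries, against 24.3, 16.8 and 19.4 CPM in WT fed libraries. Its groups overlapped too, at 0.35 ± 0.27 (log2, SE).

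The other 4 genes of the arm lay between -0.16 and 0.18 on the log2 scale. Acat2, the cytosolic thiolase that supplies acetoacetyl-CoA, had -0.16 ± 0.29, and the kinase genes Mvk and Pmvk -0.06 ± 0.40 and -0.06 ± 0.23 (SE). Mvd, for mevalonate diphosphate decarboxylase, had 0.18 ± 0.31. Mvk was uneven within both groups, with 9.58, 7.67 and 4.88 CPM in Alkbh5-deficient and 8.82, 4.15 and 10.3 CPM in WT fed libraries.

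At the squalene and lanosterol step, Sqle was higher in every Alkbh5-deficient fed library than in any WT one, although it did not pass the test. Sqle (chromosome 15, 59315077 to 59331192, plus strand), for squalene epoxidase, had 23.0, 18.5 and 17.9 CPM in Alkbh5-deficient fed libraries, against 16.8, 17.4 and 15.5 CPM in WT fed libraries. The means were 19.8 ± 2.82 and 16.6 ± 0.95 CPM (SD, n = 3 each), with a log2 fold change of 0.25 ± 0.19 (SE; 95% interval -0.19 to 0.69; edgeR adjusted p = 1.00). Fdft1, for squalene synthase, had 28.4, 17.0 and 17.9 CPM in Alkbh5-deficient fed libraries, against 23.1, 19.8 and 15.7 CPM in WT fed libraries, and the groups overlapped at 0.10 ± 0.26 (log2, SE). Lss had 4.94, 14.4 and 12.4 CPM in Alkbh5-deficient fed libraries, against 12.0, 12.2 and 17.9 CPM in WT fed libraries. Its value in Alkbh5-deficient replicate 1 rests on 33 counts and was the lowest of the 8 libraries, and the difference was -0.40 ± 0.39 (log2, SE).

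Of the 8 genes that turn lanosterol into cholesterol, 6 were above 0, with a median log2 fold change of 0.15, and 0 passed the test. Nsdhl (chromosome X, 72918557 to 72958514, plus strand), for a sterol dehydrogenase that helps remove methyl groups from lanosterol's product, had 12.4, 5.20 and 6.38 CPM in Alkbh5-deficient fed libraries, against 7.83, 4.04 and 2.72 CPM in WT fed libraries. The groups overlapped, WT replicate 3 (14 counts) was the lowest and Alkbh5-deficient replicate 1 the highest. Its log2 fold change of 0.70 ± 0.48 (SE) was the highest among members (95% interval -0.39 to 1.79; edgeR adjusted p = 1.00), and with the replicate number as a block it was 0.72 ± 0.29 (adjusted p = 0.939). Msmo1 (chromosome 8, 64718139 to 64733792, minus strand), for the sterol methyl oxidase of the same step, had 40.3, 18.9 and 21.4 CPM in Alkbh5-deficient fed libraries, against 26.3, 18.6 and 13.0 CPM in WT fed libraries. It overlapped between groups at 0.46 ± 0.35 (log2, SE; edgeR adjusted p = 1.00).

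Cyp51 (chromosome 5, 4081145 to 4104746, minus strand), for lanosterol demethylase, had 63.3, 31.1 and 36.4 CPM in Alkbh5-deficient fed libraries, against 59.6, 30.3 and 23.3 CPM in WT fed libraries. Replicates of 1 group thus differed by more than the groups did, and the log2 fold change was 0.20 ± 0.39 (SE). Tm7sf2 went the other way, with 3.44, 3.15 and 2.88 CPM in Alkbh5-deficient fed libraries, against 4.99, 3.92 and 5.05 CPM in WT fed libraries. These groups did not overlap, at -0.56 ± 0.31 (log2, SE; 95% interval -1.27 to 0.15; edgeR adjusted p = 1.00), on 23 to 34 counts a fed library. In the unlabelled pair Tm7sf2 was on the other side, at 3.16 CPM (29 counts) in the Alkbh5-deficient and 2.33 CPM (18 counts) in the WT library. The exact 95% interval of that ratio, for counting error only, ran from 72.7% to 259%. Reads shared with Vps51, which are not in these counts, numbered 8 in the Alkbh5-deficient and 16 in the WT library. The side of Tm7sf2 in this pair is therefore not settled. Ebp, for sterol isomerase, Sc5d, for a sterol desaturase, Hsd17b7 and Dhcr7, for the final reductase of one branch, lay between -0.11 and 0.20 on the log2 scale, each with overlapping groups.

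Among the regulators, 2 of 5 were above 0. Insig2 (chromosome 1, 121304353 to 121332589, minus strand), for an SCAP-retaining protein, had 6.88, 6.43 and 6.51 CPM in Alkbh5-deficient fed libraries, against 5.66, 5.53 and 4.27 CPM in WT fed libraries. The groups did not overlap, with means of 6.61 ± 0.24 and 5.16 ± 0.77 CPM (SD, n = 3 each) and a log2 fold change of 0.35 ± 0.27 (SE; 95% interval -0.28 to 0.97; edgeR adjusted p = 1.00). Insig1, for its paralogue and itself an SREBP target, had 45.9, 29.0 and 31.3 CPM in Alkbh5-deficient fed libraries, against 41.8, 30.4 and 18.7 CPM in WT fed libraries, and overlapped at 0.21 ± 0.31 (log2, SE). Srebf2 had 265, 209 and 194 CPM in Alkbh5-deficient fed libraries, against 246, 191 and 243 CPM in WT fed libraries. It overlapped almost wholly, at -0.03 ± 0.18 (log2, SE), with a 95% interval from -0.44 to 0.38.

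Srebf1 (chromosome 11, 60199089 to 60222581, minus strand), for SREBP1, had 95.2, 94.9 and 80.6 CPM in Alkbh5-deficient fed libraries, against 88.4, 81.3 and 117 CPM in WT fed libraries, at -0.09 ± 0.18 (log2, SE). Srebf1 lies 313.8 kb from Alkbh5 on the same chromosome and on the opposite strand, and it is the only member within 1 Mb of the deleted gene. Scap, for the SREBP escort protein, had -0.19 ± 0.17 (log2, SE). The sterol carrier gene Stard4 did not overlap between groups, with 35.0, 34.5 and 32.7 CPM in Alkbh5-deficient fed libraries, against 31.8, 26.9 and 26.6 CPM in WT fed libraries. Its log2 fold change was 0.26 ± 0.17 (SE; 95% interval -0.13 to 0.64; edgeR adjusted p = 1.00), with means of 34.1 ± 1.23 and 28.4 ± 2.92 CPM (SD, n = 3 each).

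In fatty acid synthesis, Fasn had 226, 244 and 193 CPM in Alkbh5-deficient fed libraries, against 245, 226 and 310 CPM in WT fed libraries. WT replicate 3 stood above the other 5, and the groups overlapped at -0.24 ± 0.17 (log2, SE). Acaca, for the acetyl-CoA carboxylase that makes malonyl-CoA, had -0.02 ± 0.18, and Elovl6, for an elongase of palmitate, 0.12 ± 0.19 (log2, SE). Of the desaturases, Fads2, which starts the desaturation of polyunsaturated fatty acids, had 23.3, 37.2 and 34.8 CPM in Alkbh5-deficient fed libraries, against 33.8, 42.2 and 51.5 CPM in WT fed libraries. It was lower in each same-numbered pair, at -0.42 ± 0.24 (log2, SE; 95% interval -0.97 to 0.13; edgeR adjusted p = 1.00), and with the replicate block it was -0.43 ± 0.17 (adjusted p = 0.939).

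Fads1, Scd1 and Scd2 lay between -0.05 and 0.10 on the log2 scale. Scd1, for the other stearoyl-CoA desaturase, had 7.18, 16.6 and 15.3 CPM in Alkbh5-deficient fed libraries, against 8.66, 21.6 and 9.71 CPM in WT fed libraries. Both replicates 1 were lower than the other 4 libraries. Fads1 and Fads2 lie 81.1 kb apart on chromosome 19, and Scd1 and Scd2 87.6 kb apart on the same chromosome. In both pairs the neighbours are on opposite strands.

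**Figure D2:**
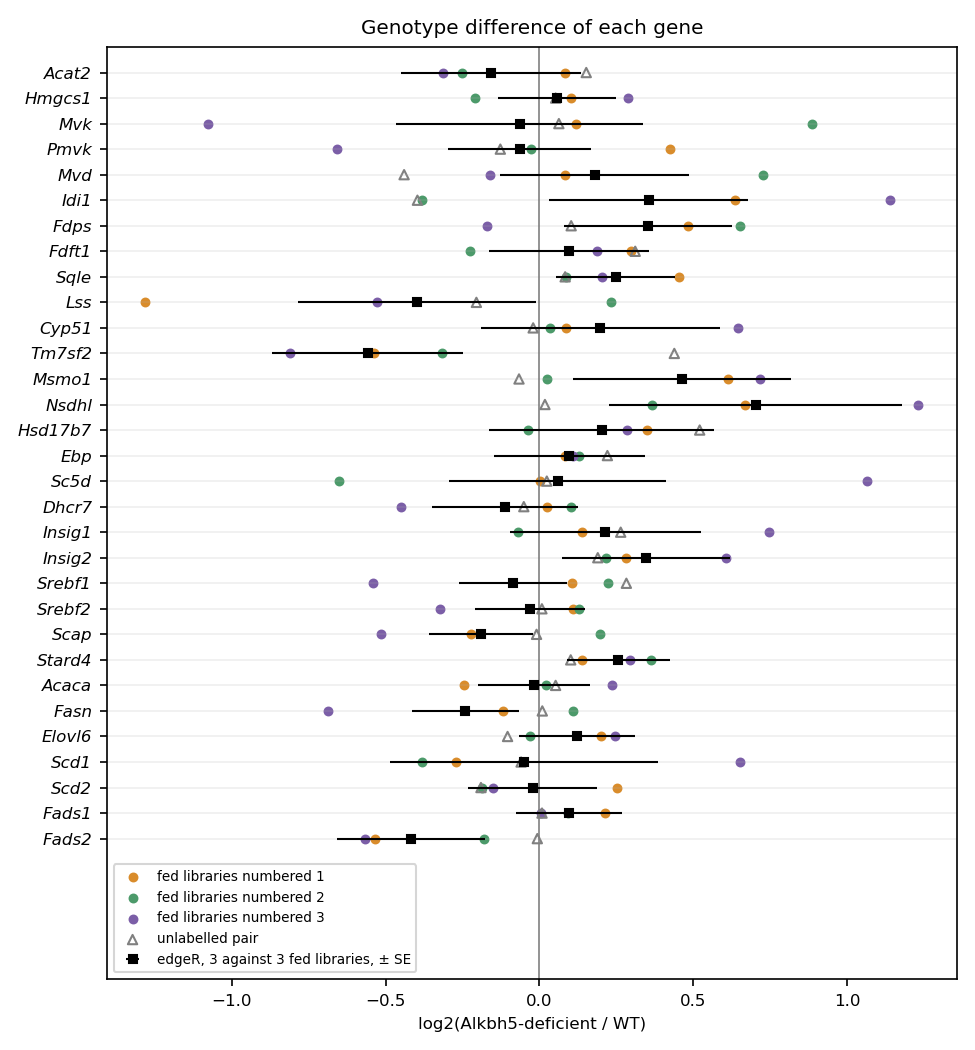
Log2 ratio of Alkbh5-deficient over WT RNA for each gene: black squares are the edgeR fold change of 3 against 3 fed libraries with its standard error, coloured points the ratios of same-numbered fed libraries, and open triangles the unlabelled pair. Fold changes run from -0.56 (Tm7sf2) to 0.70 (Nsdhl), and for most genes the 3 fed ratios lie on both sides of 0.

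In all, 3 members (Sqle, Insig2 and Stard4) were higher in every Alkbh5-deficient fed library than in any WT one, where 2.62% of tested genes were, and 1 (Tm7sf2) was lower, where 3.06% were. Same-numbered libraries deviated together from their group means across all genes, but across the 31 members this held for number 1 (r = 0.79) and not for numbers 2 and 3 (r = -0.00 and -0.10). The crossed pairs had r = 0.55 (Alkbh5-deficient 3 with WT 2) and 0.69 (Alkbh5-deficient 2 with WT 3) across the members. Between same-numbered libraries, 8 members were higher in all 3 Alkbh5-deficient libraries, where 11.7% of tested genes were. These were Sqle, Cyp51, Msmo1, Nsdhl, Ebp, Insig2, Stard4 and Fads1. Tm7sf2 and Fads2 were lower in all 3, where 11.5% of tested genes were. With the replicate block 0 members passed the threshold, and 2 (Nsdhl and Fads2) had an unadjusted p under 0.05, where 353 genes did (2.65%).

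The direction of several sterol enzymes rested on single libraries. Without Alkbh5-deficient fed replicate 1, the median of the 31 log2 fold changes was -0.10, with 12 above 0, and without WT fed replicate 3, 15 were above 0. Leaving out either library put Hmgcs1, Fdft1, Cyp51, Ebp, Sc5d and Insig1 below 0. Nsdhl ranged from 0.25 without Alkbh5-deficient replicate 1 to 1.21 without WT replicate 1, and Msmo1 from 0.06 to 0.75 without the same libraries. Over the 6 libraries left out in turn, Cyp51 ranged from -0.16 to 0.69 and Insig1 from -0.03 to 0.51 on the log2 scale.

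The 18 sterol enzymes differed more between replicates than between genotypes. Their summed level was 396, 270 and 270 CPM in Alkbh5-deficient fed replicates 1 to 3, against 339, 264 and 244 CPM in WT fed replicates 1 to 3, and 307 against 306 CPM in the unlabelled Alkbh5-deficient and WT libraries. Alkbh5-deficient replicate 1 was the highest of the 6 fed libraries for 15 of the 18 enzymes, Mvk, Lss and Tm7sf2 being the exceptions, and for 6 of the other 13 members. Over all 31 members this share was 67.7%, against 24.1% of all tested genes. The same library was the lowest for Fads2, Lss and Scd1. Relative to the mean of the other 5 fed libraries, the median member stood at 0.29 on the log2 scale in that library, and the median tested gene at -0.00.

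Both replicates 1 were above the other 4 fed libraries for 11 members (35.5%, against 22.3% of tested genes). For 9 of these WT replicate 3 was the lowest as well (29.0%, against 11.0%), namely Hmgcs1, Fdft1, Cyp51, Msmo1, Nsdhl, Hsd17b7, Ebp, Sc5d and Insig1. Of these 9, 7 are enzymes after squalene synthase or that synthase itself, and Insig1 is an SREBP target that feeds back on the pathway. The pattern was read from the values and is given as a description.

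**Figure D3:**
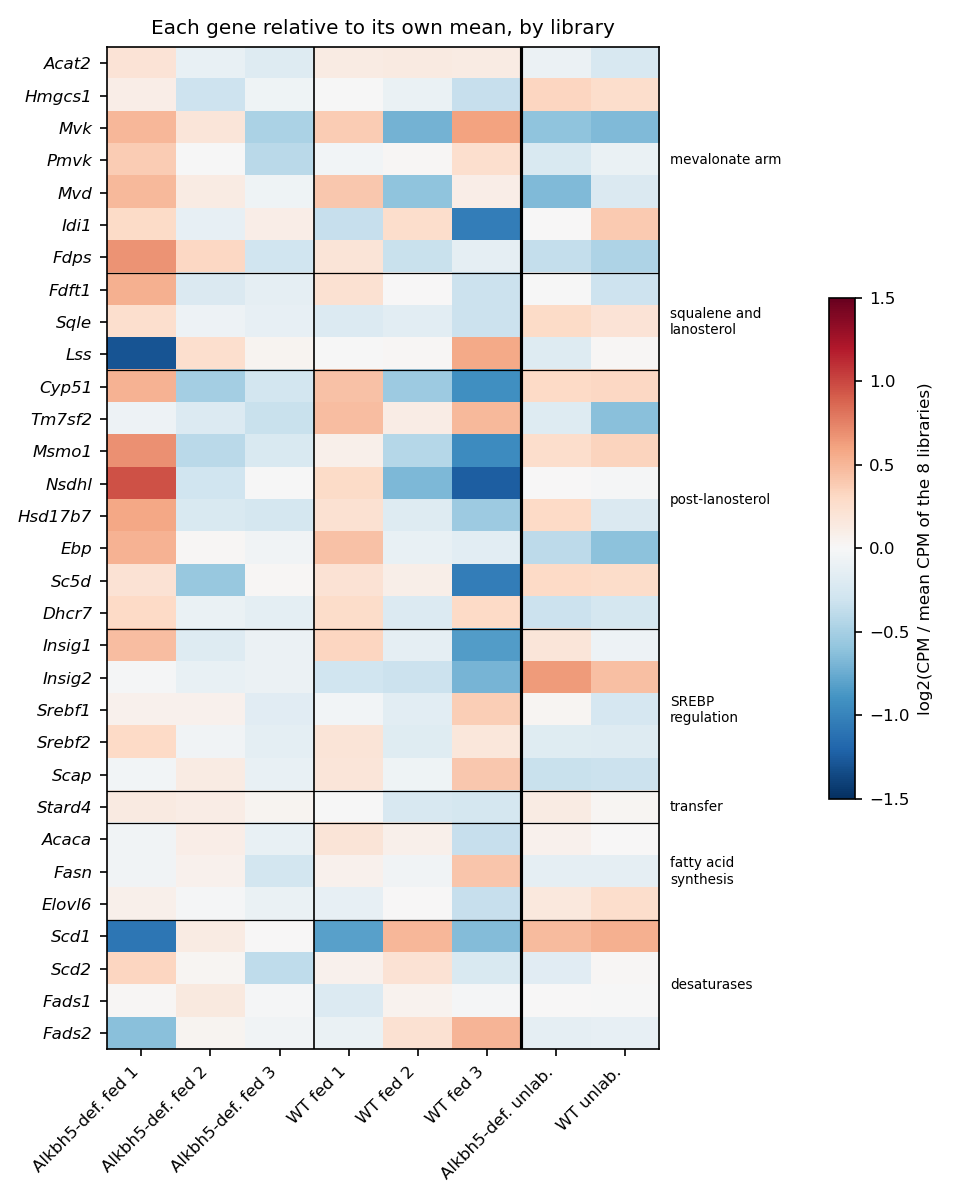
Level of each gene in each library relative to its own mean over 8 libraries (log2 scale, red above and blue below), with genes in pathway order and horizontal lines between roles. Alkbh5-deficient fed replicate 1 is red for most sterol enzymes and WT fed replicate 3 is blue for Cyp51, Msmo1, Nsdhl, Sc5d and Idi1.

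Some lists of cell type markers moved with these libraries and others did not, and their part in the levels was not tested. Markers of neutrophils, all 9 detected, summed to 11942, 7657 and 8097 CPM in Alkbh5-deficient fed replicates 1 to 3, against 13102, 6805 and 7877 CPM in WT fed replicates 1 to 3. Monocyte and macrophage markers, all 8 detected, summed to 5075, 2052 and 2481 CPM in Alkbh5-deficient, against 4363, 2476 and 1600 CPM in WT fed libraries. Both lists were highest in the replicates 1, as the sterol enzymes were. Stroma markers summed to 13.6, 589 and 621 CPM in Alkbh5-deficient, against 7.99, 308 and 1880 CPM in WT fed libraries, with Col3a1 at 0 counts in WT replicate 1. B cell markers summed to 9.73, 125 and 143 CPM in Alkbh5-deficient, against 34.0, 175 and 104 CPM in WT fed libraries. Erythroid markers were likewise lowest in both replicates 1. The stem and progenitor, mast cell and basophil, T and NK cell, megakaryocyte and dendritic cell lists did not set both replicates 1 apart. Mast cell and basophil markers, for example, summed to 493 CPM in Alkbh5-deficient and 1217 CPM in WT fed replicate 1.

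WT fed replicate 3 was ordered by base composition. It was the lowest fed library for 15 members (48.4%, against 27.8% of tested genes), whose median GC content was 45.8%, and the highest for 7 members (22.6%, against 28.5%), whose median was 56.3%. All tested genes showed the same order, with medians of 44.7% for those lowest there and 53.9% for those highest. Across the 31 members, the log2 ratio of that library to the other 5 went with GC content at a Spearman rho of 0.73, and across 13208 tested genes at 0.53. In Alkbh5-deficient fed replicate 3 rho was -0.63 over the members and -0.46 over 13224 genes. In WT fed replicate 2 it was -0.29 over the members and -0.36 over 13220 genes. In the remaining fed libraries rho over all genes lay between -0.09 and 0.08. WT replicate 3 is part of the mean that each of these libraries was compared with, so their values are not independent of it. These are descriptions across genes that share libraries, depth and composition. Idi1, with 41.9% GC, stood at -1.09 in WT replicate 3, and Nsdhl, with 45.8%, at -1.40, while Fasn, with 57.9%, stood at 0.45 and Scap, with 59.1%, at 0.38 on the log2 scale.

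With a lowess correction for GC content, 0 members passed and 19 of 31 genotype log2 fold changes were above 0, with a median of 0.08. Mvk, Pmvk, Srebf1 and Srebf2 then moved above 0, and Hmgcs1 and Sc5d below it. With Gm26917 and Gm42418 left out of the counts, 17 of 31 were above 0, the median was 0.06 and Nsdhl stood at 0.70, as with them. The part of the cells that WT replicate 3 held was not tested.

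**Figure D4:**
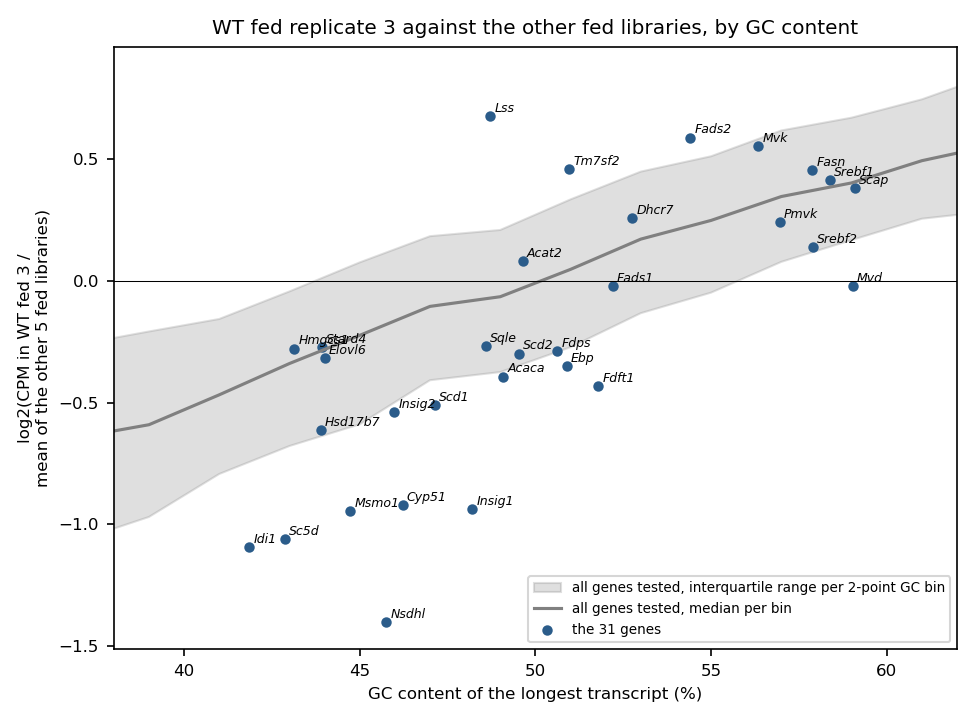
Log2 ratio of each gene's CPM in WT fed replicate 3 to its mean in the other 5 fed libraries (vertical) against the GC content of its longest transcript in percent (horizontal): blue points are the 31 genes, the grey line and band the median and interquartile range of all tested genes in GC bins. Members of low GC content, such as Idi1 at -1.09, lie low and those of high GC content, such as Fasn at 0.45, lie high.

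Without s4U there was 1 library per genotype, so the values have no replicate check. Of the 31 genes, 19 were higher in the Alkbh5-deficient unlabelled library (61.3%, against 52.6% of 14950 genes), with a median log2 ratio of 0.02 against 0.01. The exact 95% interval of the ratio, which covers counting error only, lay above 100% for 2 members and below it for 2. The share of all genes with such an interval was not computed, so these members are given as values only. Srebf1 had 92.5 CPM in the Alkbh5-deficient and 76.1 CPM in the WT library, a ratio of 122% (109% to 135%), and Insig1 37.8 CPM in the Alkbh5-deficient and 31.5 CPM in the WT library, a ratio of 120% (102% to 142%). Idi1 had 16.3 CPM in the Alkbh5-deficient and 21.5 CPM in the WT library, a ratio of 76.0% (60.5% to 95.3%), and Scd2 93.4 CPM in the Alkbh5-deficient and 107 CPM in the WT library, a ratio of 87.7% (79.6% to 96.6%). For Srebf1 and Idi1 the sign was opposite to that in the fed libraries. Cyp51, Msmo1 and Nsdhl, with 98.6% (86.4% to 113%), 95.5% (80.1% to 114%) and 101% (68.1% to 151%), were close to equal in this pair.

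Between s4U-fed and unlabelled libraries, 0 of the 31 genes passed the threshold, and 4 of 14988 tested genes did (0.0267%; edgeR quasi-likelihood test with genotype as a term, Benjamini-Hochberg adjusted p under 0.05). DESeq2 called 652 of 8593 genes with an adjusted p (7.59%) and 0 members. It gave no adjusted p to Acat2, Mvk, Mvd, Tm7sf2, Nsdhl, Hsd17b7 and Insig2, so these could not be called. At an unadjusted p under 0.05, edgeR gave 4 members (12.9%), against 2933 genes (19.6%). Of the 4, 2 were higher, where 9.53% of genes were, and 2 lower, where 10% were. Fed over unlabelled, 16 of 31 were above 0 (51.6%, against 52.1%), with a median log2 fold change of 0.10 against 0.03. The comparison rests on 1 unlabelled library per genotype, so feeding and whatever else set those libraries apart cannot be told apart. Neutrophil markers summed to 5903 and 5094 CPM in the unlabelled Alkbh5-deficient and WT libraries, against 6805 to 13102 CPM in fed libraries. The mast cell and basophil and the megakaryocyte sums were likewise higher in every fed library, and those of the other lists overlapped. The part of cell make-up in the feeding differences was not tested.

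Insig2 had the smallest p. It had 6.88, 6.43 and 6.51 CPM in Alkbh5-deficient fed and 5.66, 5.53 and 4.27 CPM in WT fed libraries, against 10.8 and 9.46 CPM in the unlabelled Alkbh5-deficient and WT libraries. All 6 fed libraries were below both unlabelled ones, at -0.79 ± 0.22 (log2, SE; 95% interval -1.28 to -0.29; edgeR adjusted p = 0.165), or 58.0% of the unlabelled level. DESeq2 gave it no adjusted p.

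Hmgcs1 was also lower in all 6 fed libraries, at 24.3 to 33.1 CPM with a median of 29.2, against 38.6 and 37.2 CPM in the unlabelled Alkbh5-deficient and WT libraries. Its log2 fold change was -0.41 ± 0.17 (SE; edgeR adjusted p = 0.229). Ebp was higher in all 6 fed libraries, at 22.5 to 36.4 CPM with a median of 24.9, against 19.2 and 16.5 CPM in the unlabelled Alkbh5-deficient and WT libraries, at 0.64 ± 0.24 (log2, SE; edgeR adjusted p = 0.202). Scap was higher likewise, at 56.8 to 81.2 CPM with a median of 63.5, against 48.9 and 49.3 CPM in the unlabelled Alkbh5-deficient and WT libraries, at 0.41 ± 0.16 (log2, SE; edgeR adjusted p = 0.218). The 95% intervals of these 4 genes alone among the 31 left out 0.

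In all, 5 members had all 6 fed libraries above both unlabelled ones (Fdps, Ebp, Dhcr7, Srebf2 and Scap; 16.1%, against 14.7% of tested genes), and 4 had all 6 below (Hmgcs1, Sc5d, Insig2 and Elovl6; 12.9%, against 16.2%). Their median GC contents were 52.8% and 43.6%, and those of all genes with the same patterns 54.0% and 43.2%. With the GC correction the median log2 fold change of the 31 was -0.04, with 15 above 0. The mevalonate arm had 5 of 7 members above 0, among them Mvk at 0.78 ± 0.40 and Mvd at 0.53 ± 0.31 (log2, SE), and the 8 genes after lanosterol had 3. Scd1 had 7.18 to 21.6 CPM in fed libraries, with a median of 12.5, against 21.1 and 22.0 CPM in the unlabelled Alkbh5-deficient and WT libraries. WT fed replicate 2 lay within the unlabelled range of Scd1, and its log2 fold change was -0.70 ± 0.37 (SE; edgeR adjusted p = 0.323).

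**Figure D5:**
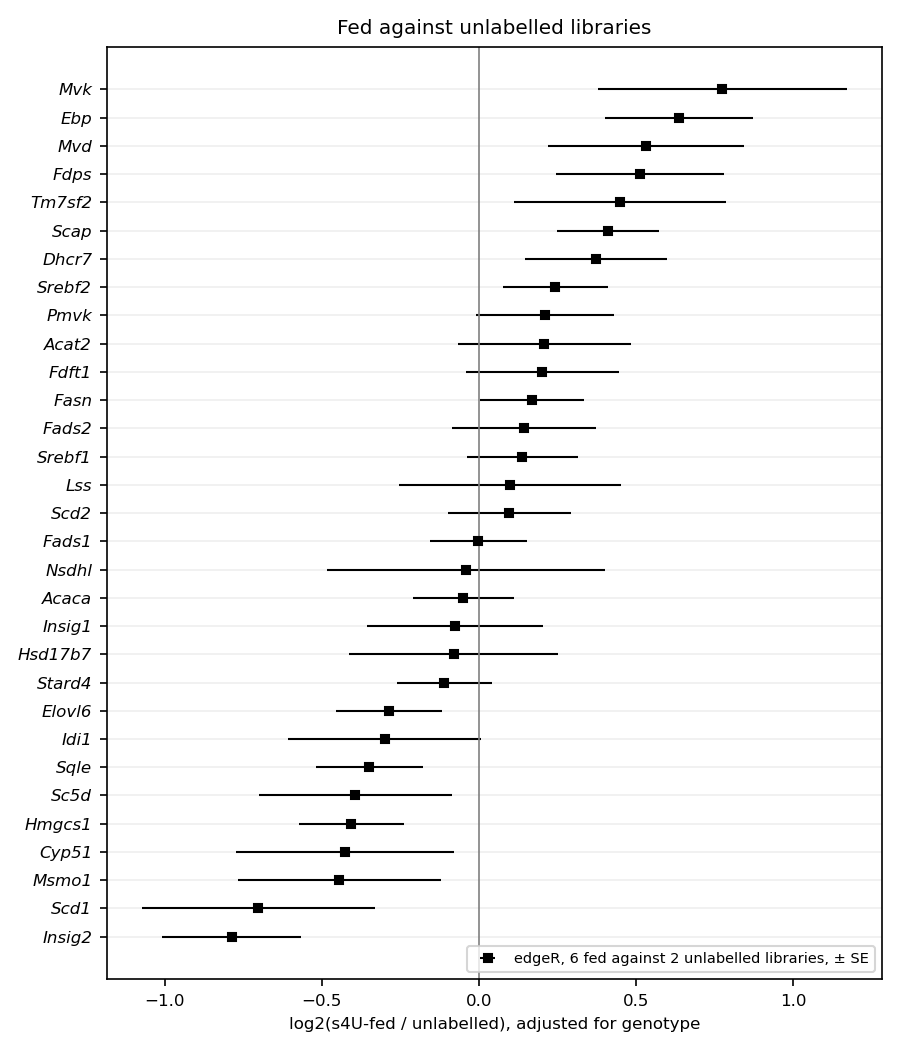
Log2 ratio of s4U-fed over unlabelled RNA for each of the 31 genes, adjusted for genotype, as the edgeR fold change of 6 fed against 2 unlabelled libraries with its standard error. Values run from -0.79 (Insig2) to 0.78 (Mvk), and none passed the threshold after adjustment.

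Whether the genotype difference depended on feeding was tested as an interaction over 8 libraries. It gave 0 members and 0 of 14988 genes past the threshold (edgeR, adjusted p; 24 genes and 0 members at an unadjusted p under 0.05, 0.16%), and DESeq2 gave 0 genes. Of the 31 interaction terms 16 were above 0, against 49% of all genes. The smallest member p belonged to Tm7sf2, at -0.99 ± 0.66 (log2, SE; edgeR adjusted p = 1.00). The median 95% interval reached 1.17 to either side, or 2.25-fold, so smaller differences could not be told from none. These intervals are not adjusted for the number of genes tested.

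Around the 31 genes, 75 further genes of the pathway in 7 lists were followed. In the genotype comparison 0 of 74 tested passed with edgeR or with DESeq2, 33 were above 0 and the median log2 fold change was -0.03. The gene with the smallest p of each list is given as a value only (log2 fold change ± SE, edgeR). These were Ebpl, an Ebp-like gene, at 0.58 ± 0.38, and Coq2, of ubiquinone synthesis, at -0.28 ± 0.17. Erlin1, of sterol-regulated degradation in the endoplasmic reticulum, had 0.37 ± 0.31, and Nr1h2, for the oxysterol receptor LXR beta, -0.27 ± 0.20. Slc25a1, the mitochondrial citrate carrier that exports carbon for both pathways, had -0.24 ± 0.22, Elovl5, a fatty acid elongase, 0.33 ± 0.24, and Dgat2, of triglyceride synthesis, 0.36 ± 0.25.

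Between fed and unlabelled libraries, 0 of the 75 passed with edgeR, and DESeq2 called 3. It called 7.59% of all genes with an adjusted p, so the count was no higher a share than the background. Some of the 75, Ebpl and Pdss1 among them, had no adjusted p from DESeq2. Pgd, for an NADPH-producing dehydrogenase of the pentose phosphate pathway, had 204, 172 and 170 CPM in Alkbh5-deficient fed and 222, 178 and 185 CPM in WT fed libraries, against 125 and 127 CPM in the unlabelled Alkbh5-deficient and WT libraries (DESeq2 adjusted p = 0.0177, edgeR adjusted p = 0.165). Npc2, for a lysosomal cholesterol carrier, was higher too (DESeq2 adjusted p = 0.0464, edgeR adjusted p = 0.174). Acsl4, which activates polyunsaturated fatty acids, was lower, with 76.2, 71.9 and 84.7 CPM in Alkbh5-deficient fed and 75.9, 78.2 and 55.6 CPM in WT fed libraries, against 112 and 118 CPM in the unlabelled Alkbh5-deficient and WT libraries (DESeq2 adjusted p = 0.0265, edgeR adjusted p = 0.165). The smallest p of the other 4 lists belonged to Ebpl at 1.09 ± 0.38, Pdss1 at -0.78 ± 0.21, Mbtps2 at -0.57 ± 0.23 and Chka at -0.53 ± 0.21 (log2 fold change ± SE, edgeR).

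Reads that the counting could split concern 7 of the members. Acaca has a processed pseudogene, Gm5182, that matches its transcript at 99.2% over 6118 bases and held 1142 counts over 8 libraries, against 4237 for Acaca. Fdps shares 1666 reads with Gm43738 on the same strand, against 1221 of its own. With those reads added, its genotype log2 fold change was 0.17 in place of 0.35, and that of feeding 0.67 in place of 0.51 (edgeR adjusted p = 0.193). Acat2 matches Acat3 at 97.7%, Idi1 matches Gm13502 at 100% over 684 bases, and Fdft1 matches Gm6781 at 97.4%, with 15, 49 and 9 counts on the copies. Scd1 matches Scd3 at 91.4%, with 0 counts on Scd3. Tm7sf2 shares 120 reads with Vps51, against 206 of its own, and no fit was run with those reads added.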

How the data were processed

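Per the labels, RNA from 8 samples of lineage-depleted marrow was made into stranded total RNA libraries after TimeLapse chemistry. The submitters' processing notes list DESeq2, HTSeq, HISAT2, STAR, cutadapt and Picard beside the builds GRCm38 and mm10, without versions. The deposited values are raw read counts per gene symbol as the authors made them, 1 file a library. They hold no T-to-C calls, so new and older RNA are counted together. Whether reads of fed and unlabelled libraries aligned equally well was not tested. The lines for reads outside genes (37.6% to 52.1% of the total) and the 928 entries for reads shared by genes were left out of library sizes.

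The 31 members, the other gene lists and the tests were chosen with earlier results of these data known. Genes with low counts were removed with filterByExpr and libraries scaled by TMM. Tests used edgeR 4.0.16 (robust quasi-likelihood, R 4.3.3), with Benjamini-Hochberg adjustment over all genes tested and a threshold of 0.05. All 31 members are described. Of the other pathway genes, those called, or otherwise the one with the smallest p in each list, are named. DESeq2 1.42.0, other scalings and filters, a GC correction (lowess, span 0.3), a replicate block and left-out libraries were the alternatives, and the GC correction and the reads shared with copies were added after the data were seen. Symbols were matched to GENCODE M21 for 27070 of 27710 genes, and copies of members were found with BLAST+ 2.17.0. The fits were tested on simulated counts.

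Same-numbered fed libraries deviated together from their group means (r = 0.69, 0.28 and 0.19 across genes for numbers 1, 2 and 3), so the numbers were taken as pairs by a minimum r of 0.1. Libraries 2 and 3 went together more closely with the other number (0.37 for Alkbh5-deficient 3 with WT 2, and 0.36 for Alkbh5-deficient 2 with WT 3). For these numbers the pairing is thus an assumption, on which the replicate block and the same-numbered ratios rest. PCR copies were not told apart by molecular identifiers in the counts, so intervals on counts cover counting error only.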

Additional observations from a re-analysis of the deposited data

How the results depend on the processing

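No member passed the threshold under any alternative run (smallest adjusted p 0.890 for genotype with edgeR, block and GC correction, and 0.0943 for feeding with DESeq2). For feeding, DESeq2 gave no adjusted p to Insig2 and the other members named above, so it could not call them. With the replicate block, genotype called 1 gene and 0 members, with a member median of 0.08. Genes called for genotype were 2 without the low-count filter, 2 with DESeq2 and 2 with the block and GC correction. For feeding they were 37 without the filter, 652 with DESeq2, 0 in WT alone, 0 in Alkbh5-deficient alone and 0 to 2 with a library left out. Small log2 fold changes turned sign, and the cause was not tested. For genotype, the additive fit over 8 libraries gave Srebf1 0.00889 and Acaca 0.00402, and Acaca with Gm5182 gave 0.0141. The GC correction gave Hmgcs1 -0.0513, Mvk 0.0782, Pmvk 0.0593, Sc5d -0.0244, Srebf1 0.0765 and Srebf2 0.11, and with the replicate block added Hmgcs1 -0.0582, Mvk 0.0936, Pmvk 0.0389, Sc5d -0.0191, Srebf1 0.0756 and Srebf2 0.11. For feeding, Fads1 was 0.00288 with RLE scaling, 0.000797 with a 1 CPM filter and 0.00418 with DESeq2. WT alone gave Hsd17b7 0.0833, and Alkbh5-deficient alone Idi1 0.11, Nsdhl 0.32, Srebf1 -0.0252, Fads1 0.0560 and Fads2 -0.0402. The GC correction gave Pmvk -0.0633, Idi1 0.0517, Nsdhl 0.10, Hsd17b7 0.17, Srebf1 -0.16, Srebf2 -0.0455, Stard4 0.14, Fasn -0.12 and Fads2 -0.0666. With each library left out, genotype values ranged from -0.0349 to 0.16 (Hmgcs1), -0.38 to 0.20 (Mvk), -0.27 to 0.11 (Pmvk), -0.0626 to 0.42 (Mvd), -0.17 to 0.23 (Fdft1), -0.16 to 0.69 (Cyp51), -0.11 to 0.41 (Hsd17b7), -0.10 to 0.32 (Ebp), -0.22 to 0.27 (Sc5d), -0.0254 to 0.51 (Insig1), -0.19 to 0.0900 (Srebf1), -0.17 to 0.0517 (Srebf2), -0.15 to 0.0896 (Acaca), -0.29 to 0.51 (Scd1) and -0.19 to 0.14 (Scd2). Feeding values ranged from -0.66 to 0.0965 (Idi1), -0.0299 to 0.26 (Lss), -0.00433 to 0.98 (Tm7sf2), -0.38 to 0.31 (Nsdhl), -0.23 to 0.0827 (Hsd17b7), -0.21 to 0.0377 (Insig1), -0.0374 to 0.33 (Srebf1), -0.0991 to 0.0177 (Acaca), -0.0487 to 0.0434 (Fads1) and -0.0543 to 0.35 (Fads2). The interaction could not be fitted without an unlabelled library. Depth limits Tm7sf2 most, with 206 counts over 8 libraries.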
